A study of Homo sapiens with 24 samples.

Results

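The genes of the sterol sensor and a carrier of cholesterol between membranes were followed in breast cancer cells, taken by symbol as 6 of the 14493 genes in a table of RNA-seq read counts: SREBF1, SREBF2, SCAP, INSIG1, INSIG2, and STARD4. All 24 libraries came from SKBR3, an established human line of HER2-amplified breast cancer, with 3 replicates in each of 8 groups. The FASTIS cells, in which senescence was induced with inhibitors of fatty acid synthesis, received either the ACC inhibitor ND-646 or the FASN inhibitor TVB-3166, each at 250 nmol/L. The other therapy-induced senescent (TIS) cells received bleomycin at 10 μmol/L, doxorubicin at 10 nmol/L, alisertib at 500 nmol/L, or palbociclib at 1 μmol/L. The labels of treated cells give a refeed on day 3 and collection on day 7, and the paper's methods have drug renewed every 3 days. The 2 untreated groups were collected at day-0 and at day-7, and their labels give no refeed. All groups thus share a single cell line grown in culture, and the labels do not say whether replicates were separate cultures, so p-values measure the spread between these libraries alone.

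SREBF1 and SREBF2 encode SREBP-1 and SREBP-2, transcription factors that are made as inactive precursors in the membrane of the endoplasmic reticulum. SCAP binds the precursors and escorts them to the Golgi when membrane cholesterol is low, where proteases release the active factor. INSIG1 and INSIG2 hold SCAP in the endoplasmic reticulum when sterols are plentiful. SREBP-2 acts mainly on genes of cholesterol synthesis and lipoprotein uptake, SREBP-1 mainly on genes of fatty acid synthesis, and INSIG1 is itself a target of SREBPs, so that the sensor rebuilds its own brake. STARD4 encodes a soluble START-domain protein that moves cholesterol between membranes and is also known as an SREBP target. The SREBPs are regulated by cleavage, so levels of mRNA do not give the amount of active protein.

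Promoter sequences are shown for the 3 genes with a motif match, all of which rose, and for SCAP, which had no match and was not called. SREBF1 and INSIG2 also rose but had no match, so a match did not set apart the genes that rose. They are the 250 bases before the RefSeq transcription start (GRCh38.p14), written 5′ to 3′ on the strand of the gene, and capitals mark matches on either strand to the sterol regulatory element (SRE, TCACNCCAC), the sterol E-box (TCACNTGA), and the NF-Y box (ATTGG, or CCAAT on the other strand). The windows are chr22:41832855-41833104 on the plus strand for SREBF2, chr7:155297628-155297877 on the plus strand for INSIG1, chr5:111512536-111512785 on the minus strand for STARD4, and chr3:47475942-47476191 on the minus strand for SCAP.
SREBF2: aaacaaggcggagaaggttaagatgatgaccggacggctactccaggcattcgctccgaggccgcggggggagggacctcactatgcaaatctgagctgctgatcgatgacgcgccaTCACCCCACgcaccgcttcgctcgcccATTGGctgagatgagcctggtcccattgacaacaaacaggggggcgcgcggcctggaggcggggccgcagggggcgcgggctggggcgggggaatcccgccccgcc
INSIG1: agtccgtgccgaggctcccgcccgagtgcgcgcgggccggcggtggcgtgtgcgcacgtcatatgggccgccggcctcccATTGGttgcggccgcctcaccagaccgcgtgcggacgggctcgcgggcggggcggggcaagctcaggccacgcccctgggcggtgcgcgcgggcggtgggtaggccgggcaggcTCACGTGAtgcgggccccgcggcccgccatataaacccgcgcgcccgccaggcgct
STARD4: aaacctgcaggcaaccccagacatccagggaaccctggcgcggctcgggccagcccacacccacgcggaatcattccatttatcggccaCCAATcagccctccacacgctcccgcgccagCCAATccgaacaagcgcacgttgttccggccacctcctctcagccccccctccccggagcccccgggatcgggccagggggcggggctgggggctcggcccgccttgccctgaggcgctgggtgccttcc
SCAP: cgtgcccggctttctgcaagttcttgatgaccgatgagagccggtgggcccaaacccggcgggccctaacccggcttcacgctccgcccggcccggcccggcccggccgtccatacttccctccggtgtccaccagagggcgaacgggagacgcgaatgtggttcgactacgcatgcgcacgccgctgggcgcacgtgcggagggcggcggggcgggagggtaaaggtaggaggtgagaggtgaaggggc
The SREBF2 window held an SRE at -133 to -125 from the start and an NF-Y box at -106 to -102. INSIG1 held a sterol E-box at -56 to -49 and an NF-Y box at -170 to -166. STARD4 held NF-Y boxes at -161 to -157 and at -130 to -126, and the SCAP window held none of these motifs. Among 35116 promoters of the same length, 0.883% held the SRE, 3.2% the sterol E-box, and 32% the NF-Y box. The single SREBF1 window and both INSIG2 windows held no match either, although both genes rose in FASTIS cells. A match in these letters does not show binding, and sites outside the windows were not searched.

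The SREBF genes also carry a pair of intronic microRNAs of one family, known for acting on cholesterol export and fatty acid oxidation genes. Their mature 5p arms (RefSeq, GRCh38.p14) are shown because they share the seed, bases 2 to 8, which is in capitals.
hsa-miR-33b-5p, in SREBF1: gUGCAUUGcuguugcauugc
hsa-miR-33a-5p, in SREBF2: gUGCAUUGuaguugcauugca
The counts are of host gene mRNA, and the mature microRNAs were not analysed here.

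Library totals ranged from 29405121 to 44316330 counts. Of 8 markers fixed for HER2-amplified luminal epithelium, 7 were measured, and ERBB2 stood at 5125 to 8828 CPM (counts scaled to a common library size) in all libraries. Among 9 markers of fibroblasts, endothelium, leukocytes, and basal cells, COL1A1 reached 15.2 CPM at most and VWF 1.47 CPM. Their sums were 6.53 to 11.6 CPM in ND-646, 8.89 to 11.2 CPM in TVB-3166, and 12.1 to 13.5 CPM in day-0 cells. The other 7 were not among the genes in the counts used here. The summed luminal markers were highest in untreated day-0 cells, at 17162 to 20204 CPM, against 11465 to 17777 CPM in ND-646, 13791 to 17017 CPM in TVB-3166, and 10010 to 13511 CPM in bleomycin cells, and their part in the results was not tested. ND-646 replicate 1 had the lowest mean correlation with the other libraries of its group, at 0.970 across genes, and values without it are given below. In bulk RNA, a change in the share of cells that use a gene and a change of its RNA in each cell cannot be told apart.

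Among the 6 genes, 5 rose in both FASTIS groups relative to untreated day-0 cells, namely INSIG1, STARD4, SREBF1, INSIG2, and SREBF2, whereas SCAP passed the test in none of the comparisons as fitted. A gene was called at an adjusted p-value under 0.05, and every call relative to day-0 cells was an increase. The share of all genes whose libraries separate without overlap was not counted. Lack of overlap, where given below, therefore only describes the levels. In ND-646 cells 5 of 6 genes were called, where 37.9% of 13604 genes were called in either direction and 19.1% as higher. TVB-3166 cells also had 5 of 6, against 55.1% in either direction and 27.4% as higher. Thus a called increase was common in these cells, and the sizes of the changes say more than the count. The median log2 fold-change of the 6 genes was 1.38 (ND-646) and 1.23 (TVB-3166), whereas the median over all genes tested was 0.02 and -0.01.

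In the other TIS groups the median change of the 6 genes was smaller, while the count of called genes reached that of FASTIS cells with alisertib. Alisertib cells had 5 of 6 genes called, all higher, where 37.3% of all genes were called in either direction and 17.7% as higher. Doxorubicin cells had 4 (48.4% and 23.7% of all genes), palbociclib cells 4 (53.2% and 26.0%), and bleomycin cells 2 (49.4% and 24.1%). The medians over the 6 genes were 0.66 for alisertib, 0.53 for doxorubicin, 0.45 for palbociclib, and 0.10 for bleomycin on the log2 scale. At a fold-change of at least 2 with a raw p-value under 0.05, the count was 3 of 6 in each FASTIS group, 2 with alisertib, 1 with doxorubicin, and 0 with bleomycin and palbociclib. The same rule called 11.4% of genes as higher in ND-646, 10.9% in TVB-3166, 6.47% in alisertib, 10.0% in doxorubicin, 11.5% in bleomycin, and 10.5% in palbociclib cells. The 7 comparisons share the day-0 libraries. The doxorubicin count was 2 without day-0 replicate 2, doxorubicin replicate 1, or doxorubicin replicate 3, because INSIG2 and STARD4 no longer passed.

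**Figure D1:**
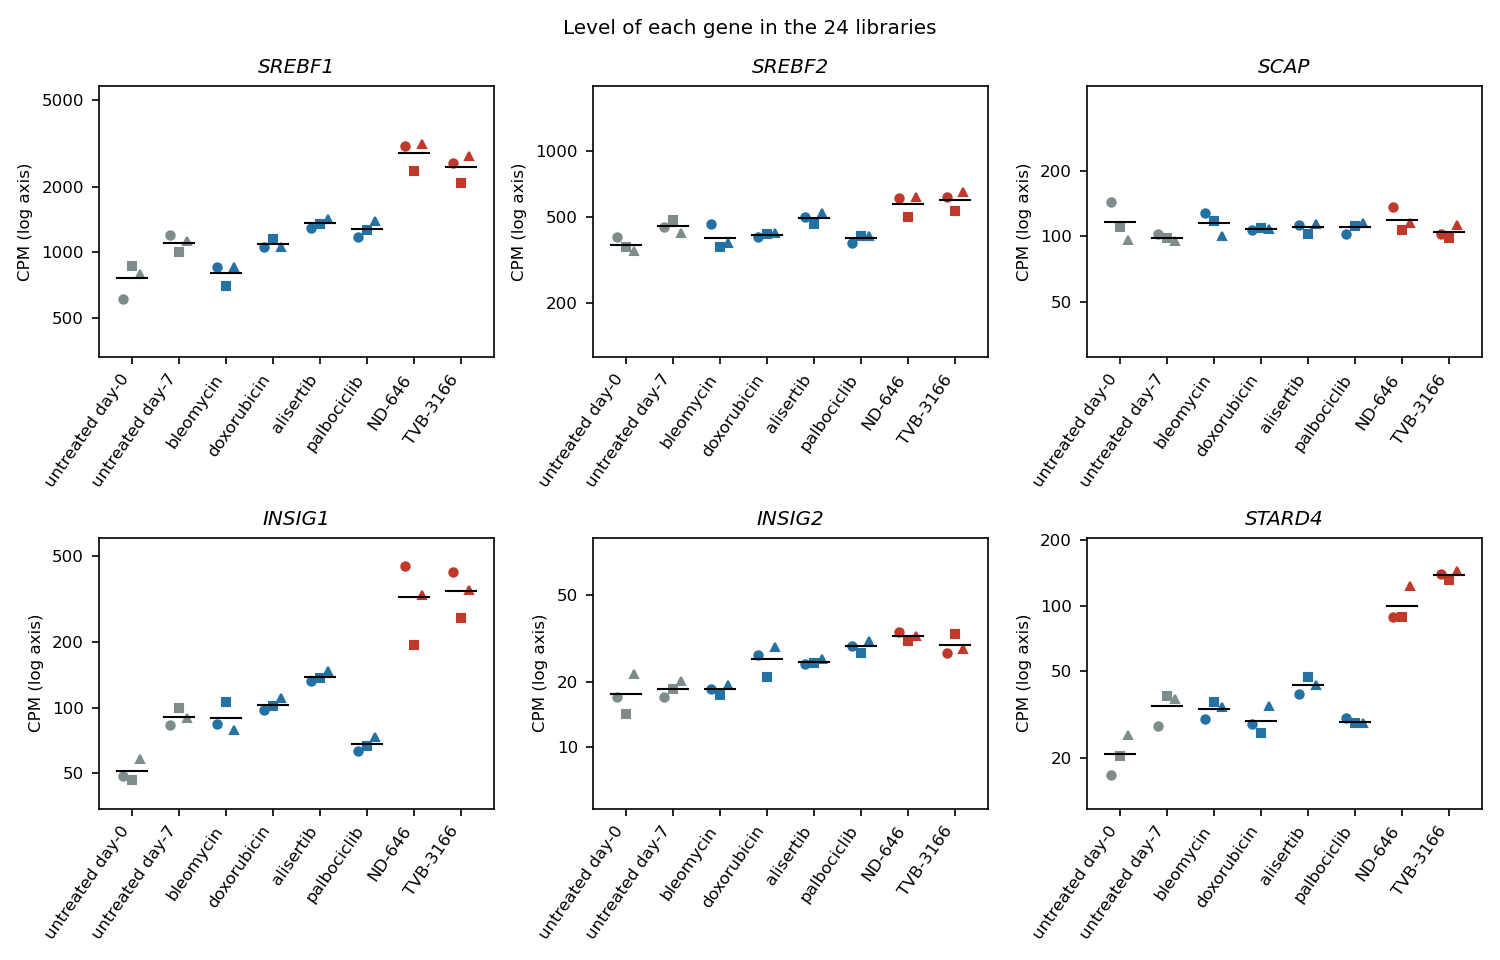
CPM on a log axis of the 6 genes in each library, by group, with circles, squares, and triangles for replicates 1, 2, and 3, a bar at the group mean, and red for ND-646 and TVB-3166, blue for the other treatments, and grey for untreated cells. For SREBF1, INSIG1, and STARD4 all 6 FASTIS libraries sit above all 18 others, whereas SCAP stays between 94.8 and 144 CPM. The share of all genes that separate in this way was not counted.

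SREBF1, on the minus strand at chr17:17713713-17740316 of GRCh37, was at 612, 871, and 795 CPM in the day-0 libraries. In ND-646 cells it was at 3100.1, 2360.4, and 3137 CPM, and in TVB-3166 cells at 2566, 2096, and 2768 CPM. All 6 FASTIS libraries lay above the highest of the other libraries, an alisertib library at 1431 CPM. SREBF1 rose 3.74-fold in ND-646 cells (log2 fold-change 1.90 ± 0.22 SE, adjusted p = 0.000302) and 3.27-fold in TVB-3166 cells (1.71 ± 0.16, adjusted p = 7.82e-06). Alisertib, palbociclib, and doxorubicin cells rose by 0.84, 0.75, and 0.53 on the same scale, with adjusted p-values of 0.00129, 0.00127, and 0.0112. Bleomycin cells, at 704 to 859 CPM, overlapped day-0 cells (0.09, 95% interval -0.26 to 0.44). In the order of group means, ND-646 and TVB-3166 libraries overlapped at the top, alisertib, palbociclib, day-7, and doxorubicin cells each overlapped the next, and bleomycin and day-0 cells overlapped at the bottom. Counts cover the whole gene, so the SREBP-1a and SREBP-1c transcripts were not separated. SREBF1 overlaps RAI1 on the opposite strand over 1055 bases, and whether the counting used strand is not given in the sources used here.

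SREBF2, on the plus strand at chr22:42229109-42303310 of GRCh37, moved less. Its levels were 404, 363, and 348 CPM at day-0, 608, 499, and 615 CPM in ND-646, and 613, 528, and 647 CPM in TVB-3166 cells. Both FASTIS groups stood clear of day-0 cells, but an alisertib library at 521 CPM lay above the lowest ND-646 library. SREBF2 rose 1.53-fold in ND-646 cells (log2 fold-change 0.61 ± 0.16, adjusted p = 0.0146) and 1.61-fold in TVB-3166 cells (0.69 ± 0.11, adjusted p = 0.000369). In ND-646 cells the call was lost without day-0 replicate 2, day-0 replicate 3, or ND-646 replicate 3, with adjusted p-values of 0.0574 to 0.0738 and log2 fold-changes of 0.56 to 0.59. Alisertib was the only other treatment with a call relative to day-0 cells (0.41 ± 0.09, adjusted p = 0.00717), and the differences were 0.17 with doxorubicin, 0.11 with bleomycin, and 0.10 with palbociclib. SREBF2 overlaps the antisense gene SREBF2-AS1 over 1561 bases.

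INSIG1, the brake that SREBPs themselves induce, had the largest change of the 6 genes in ND-646 cells. It lies on the plus strand at chr7:155089486-155101945 of GRCh37 and was at 48.6, 46.6, and 57.9 CPM in day-0 cells. ND-646 libraries had 446, 195, and 329 CPM, and TVB-3166 libraries 422, 258, and 349 CPM. These values spread widely within each group, with replicate 2 lowest in both, yet the lowest exceeded the 147 CPM that was the maximum of the other 18 libraries. INSIG1 rose 6.26-fold in ND-646 cells (log2 fold-change 2.65 ± 0.28, adjusted p = 0.00019) and 6.74-fold in TVB-3166 cells (2.75 ± 0.17, adjusted p = 6.65e-07). Without ND-646 replicate 1 the former was 2.35 on the log2 scale. INSIG1 and STARD4 were called in all 6 treatments relative to day-0 cells, and INSIG1 had log2 fold-changes of 1.44 for alisertib, 1.03 for doxorubicin, 0.82 for bleomycin, and 0.41 for palbociclib. Palbociclib cells, at 63.3, 66.9, and 73.2 CPM, lay below all libraries of the other treatments and above those of day-0 cells. Their call (adjusted p = 0.00877) was lost with all 24 libraries in a single fit, where the adjusted p-value was 0.0959.

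INSIG2, the paralog that is not known to depend on SREBPs in the way INSIG1 does, changed on a narrower scale and in another order. The gene is on the plus strand at chr2:118846028-118868573 of GRCh37. Day-0 libraries had 17.0, 14.3, and 21.8 CPM, ND-646 libraries 33.8, 30.7, and 32.7 CPM, and TVB-3166 libraries 27.1, 33.1, and 28.4 CPM. Palbociclib libraries had 29.3, 27.1, and 30.9 CPM and thus overlapped both FASTIS groups, unlike for INSIG1, where palbociclib was the lowest of the treatments. The increases were 1.82-fold in ND-646 (log2 fold-change 0.86 ± 0.18, adjusted p = 0.00615), 1.67-fold in TVB-3166 (0.74 ± 0.16, adjusted p = 0.00188), and 1.65-fold in palbociclib cells (0.72 ± 0.15, adjusted p = 0.00242). Doxorubicin (0.54) and alisertib (0.48) were called with adjusted p-values of 0.0233 and 0.0246, and in both the call was lost without single libraries. For alisertib these were day-0 replicate 2 and alisertib replicates 2 and 3, with log2 fold-changes of 0.36 to 0.49. Bleomycin cells, at 17.5 to 19.3 CPM, overlapped day-0 cells (0.07, 95% interval -0.30 to 0.44).

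SCAP, the escort of the SREBP precursors, had overlapping levels in neighbouring groups throughout. It lies on the minus strand at chr3:47455171-47518616 of GRCh37. Group means ranged from 98.8 ± 4.0 CPM (SD, n = 3) in day-7 cells to 119 ± 15.5 CPM (n = 3) in ND-646 cells, and each group overlapped the next in that order. The log2 fold-change relative to day-0 cells was 0.02 in ND-646 cells (95% interval -0.39 to 0.43) and -0.16 in TVB-3166 cells (-0.46 to 0.15), so that changes within these intervals were not excluded. Day-0 replicate 1, at 144 CPM, was the highest library, and without it the TVB-3166 value was 0.02. Of 144 results under other settings, 25 turned the sign of a difference near 0 and 1 passed the threshold, as described with the comparison of treatments. Those under the rule of a fold-change of at least 2 re-used the main fit, so their sign could not turn.

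STARD4, the cholesterol carrier, separated both FASTIS groups from all other libraries. It lies on the minus strand at chr5:110831731-110848288 of GRCh37 and overlaps STARD4-AS1 over 2195 bases on the other strand. Levels were 16.7, 20.3, and 25.5 CPM in day-0, 88.3, 88.6, and 123 CPM in ND-646, and 140, 131, and 143 CPM in TVB-3166 cells. All FASTIS libraries lay above the 46.8 CPM reached by an alisertib library, and the TVB-3166 libraries above those of ND-646. STARD4 rose 4.76-fold in ND-646 cells (log2 fold-change 2.25 ± 0.22, adjusted p = 0.00011) and 6.66-fold in TVB-3166 cells (2.74 ± 0.14, adjusted p = 3.17e-07). Alisertib cells rose by 1.05 on the log2 scale, bleomycin cells by 0.68, doxorubicin cells by 0.52, and palbociclib cells by 0.49, with adjusted p-values of 0.000718, 0.00748, 0.0248, and 0.0161. The doxorubicin call was lost without day-0 replicate 1 or 2 or doxorubicin replicate 1 or 3, and the palbociclib call without palbociclib replicate 1.

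Per kilobase of annotated exon, SREBF1 was the most abundant of the 6 mRNAs in all groups, and the order of the others shifted between day-0 and FASTIS cells. In day-0 cells the means were 92.2 ± 16.1 CPM per kilobase for SREBF1, 46.1 ± 3.6 for SREBF2, 18.6 ± 4.0 for SCAP, 14.0 ± 1.7 for INSIG1, 4.48 ± 0.97 for INSIG2, and 3.66 ± 0.78 for STARD4 (SD, n = 3). In TVB-3166 cells they were 301 ± 42 for SREBF1, 93.9 ± 22.6 for INSIG1, 74.0 ± 7.6 for SREBF2, 24.3 ± 1.1 for STARD4, 16.6 ± 1.2 for SCAP, and 7.48 ± 0.80 for INSIG2. In ND-646 cells they were 348 ± 53.2 for SREBF1, 88.6 ± 34.5 for INSIG1, 71.3 ± 8.0 for SREBF2, 19.0 ± 2.5 for SCAP, 17.6 ± 3.5 for STARD4, and 8.21 ± 0.40 for INSIG2. The INSIG1 mean thus stood below that of SCAP at day-0 and above it in both FASTIS groups, whereas the STARD4 mean was above that of SCAP in TVB-3166 cells and not in ND-646 cells. These lengths are the union of all annotated exons, and the transcripts that SKBR3 cells use may be shorter.

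Untreated cells at day-7 showed how far the levels moved without drug and with no refeed given in their labels. Relative to day-0 cells, 1 of 6 genes was called, INSIG1, where 0.389% of all genes tested were called as higher, and 0 of 6 passed the fold-change rule (1.66% of all genes as higher), since the INSIG1 change was under 2-fold. INSIG1 stood at 82.9, 100.1, and 89.6 CPM, above all day-0 libraries (log2 fold-change 0.84 ± 0.11, adjusted p = 0.0315). STARD4 (0.74, adjusted p = 0.0692), SREBF1 (0.56, adjusted p = 0.082), and SREBF2 (0.29, adjusted p = 0.12) missed the threshold although their libraries did not overlap those of day-0. Deviations of same-numbered untreated libraries correlated only weakly, at 0.102 to 0.282, the lowest just over the 0.1 set for pairing. With the replicate number as a block 3 of 6 genes were called, INSIG1 (adjusted p = 0.00246), STARD4 (0.00388), and SREBF1 (0.0229). The share of all genes called in either direction then went from 0.587% to 9.26%. DESeq2 also called 3 of 6, but the share of all genes that it called is not given here. Without the block, the INSIG1 call was lost without day-0 replicate 2 or any of the day-7 libraries.

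Relative to untreated day-7 cells the log2 fold-changes were lower than relative to day-0 cells in all 6 treatments for INSIG1, STARD4, SREBF1, and INSIG2, and these 4 genes were still called as higher in both FASTIS groups. Treated cells had a refeed in their labels and day-7 cells did not, so drug and refeed cannot be told apart on this reference. In ND-646 cells 4 of 6 genes were called, all higher (34.2% of all genes in either direction), and in TVB-3166 cells 5 of 6 (51.5%). INSIG1 rose by 1.82 ± 0.27 and 1.92 ± 0.15 on the log2 scale in ND-646 and TVB-3166 cells, STARD4 by 1.52 ± 0.19 and 2.001 ± 0.116, SREBF1 by 1.36 ± 0.18 and 1.16 ± 0.12, and INSIG2 by 0.79 ± 0.13 and 0.67 ± 0.11. SREBF2 was called in TVB-3166 cells (0.41 ± 0.10, adjusted p = 0.00425) and not in ND-646 cells (0.34 ± 0.14, adjusted p = 0.0948). SCAP was called in none of the 6 treatments, though its differences were all positive. They were 0.26 in ND-646, 0.24 in bleomycin, 0.17 in alisertib, 0.16 in doxorubicin and palbociclib, and 0.085 in TVB-3166 cells. Its ND-646, alisertib, and doxorubicin libraries lay above all day-7 libraries.

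INSIG2 was also still called as higher with palbociclib, doxorubicin, and alisertib. Palbociclib cells split the INSIG pair on the day-7 reference, since INSIG1 fell (log2 fold-change -0.41 ± 0.09, adjusted p = 0.00352) and INSIG2 rose (0.66 ± 0.10, adjusted p = 0.000422). These were the 2 of 6 genes called there, where 44.8% of all genes were called in either direction. In bleomycin cells SREBF1 fell (-0.45 ± 0.12, adjusted p = 0.0119) and no other of the 6 genes was called (45.6% of all genes). In doxorubicin cells INSIG2 alone was called (0.48 ± 0.13, adjusted p = 0.00815, against 43.4% of all genes). Alisertib cells had 3 calls, all higher, for INSIG1 (0.63), INSIG2 (0.43), and SREBF1 (0.31), where 19.0% of all genes were called in either direction.

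**Figure D2:**
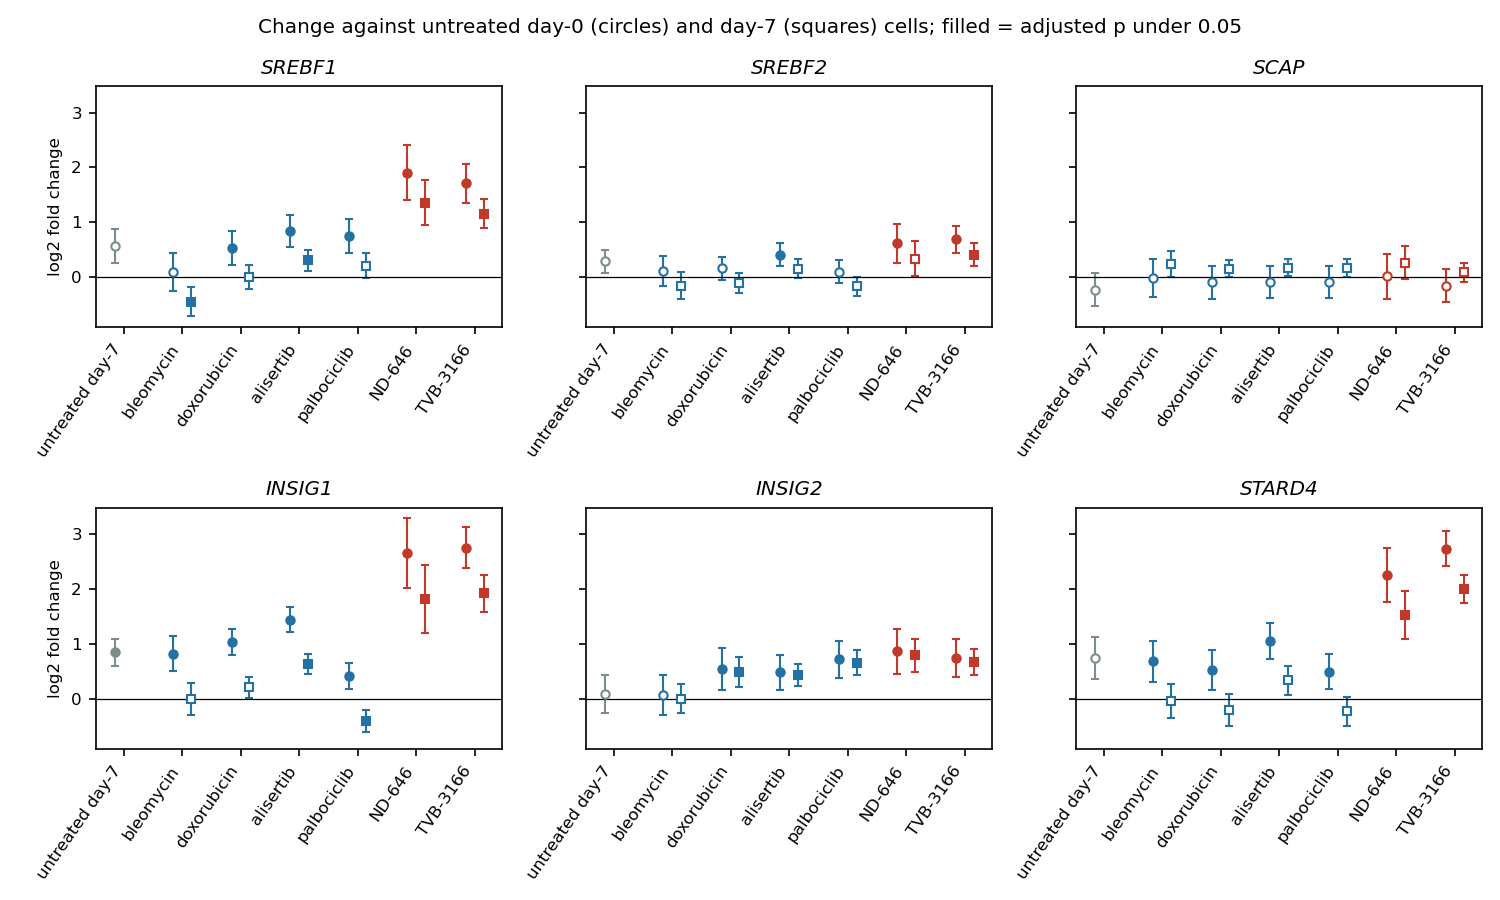
Log2 fold-change with 95% interval of the 6 genes in each group relative to untreated day-0 cells (circles) and day-7 cells (squares), filled where the adjusted p-value is under 0.05, in red for ND-646 and TVB-3166 and blue for the other treatments. The red points of INSIG1 and STARD4 stay above 1.5 on both references, and for palbociclib the INSIG1 square is below 0 while the INSIG2 square is above it.

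To ask whether the changes went beyond senescence in general, both FASTIS groups were set against the 4 other treatments, with all 18 treated libraries in a fit. Of the 6 genes 5 were called, all higher, where 50.1% of 14052 genes were called in either direction and 26.1% as higher, and 3 of 6 passed the fold-change rule (2.36% of all genes as higher). STARD4 was 3.53-fold higher in FASTIS cells (log2 difference 1.82 ± 0.08, adjusted p = 2.86e-11), INSIG1 3.46-fold (1.79 ± 0.13, adjusted p = 1.46e-08), and SREBF1 2.40-fold (1.27 ± 0.08, adjusted p = 3.24e-09). The contrast was small for SREBF2 (0.47 ± 0.07, adjusted p = 2.31e-05) and INSIG2 (0.36 ± 0.07, adjusted p = 0.000335), whose libraries overlapped between both classes. SCAP differed by 0.02 (95% interval -0.12 to 0.16, adjusted p = 0.854). Scaling by library totals alone, which moved the median of all genes by -0.13 in this contrast, gave SCAP a difference of -0.14 with an adjusted p-value of 0.0363, so the direction for SCAP depends on the scaling and its size equals the shift. Without ND-646 replicate 1 the calls were again 5 of 6, with log2 differences of 1.86 for STARD4, 1.63 for INSIG1, and 1.23 for SREBF1. The contrast covers 2 drugs against 4, and other fatty acid synthesis inhibitors were not measured here.

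Ratios between the counts of 2 genes in a library do not depend on its scaling. INSIG1 had 2.66 to 3.27 counts per INSIG2 count in day-0 libraries and 2.16 to 2.46 in palbociclib libraries, which thus lay below day-0. The ratio was 6.33 to 13.2 in ND-646 and 7.79 to 15.6 in TVB-3166 libraries, against at most 6.07 in the other treatments. FASTIS libraries exceeded the other treated libraries 2.60-fold on the log2 mean (exact permutation test of 6 against 12 libraries, 2-sided, p = 5.39e-05, also after adjustment over 3 ratios). The ratios were chosen with results known, and INSIG1 levels already separated these libraries, so the p-value adds no support.

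Per SCAP count, INSIG1 had 0.337 to 0.603 counts in day-0, 1.82 to 3.26 in ND-646, and 2.62 to 4.14 in TVB-3166 libraries, while the other treated libraries had 0.597 to 1.32. The FASTIS libraries were 3.31-fold above the other treated ones by the same permutation test (p = 5.39e-05). The balance of the 2 SREBP genes shifted as well. SREBF1 counts per SREBF2 count were 1.52 to 2.40 in day-0, 4.73 to 5.11 in ND-646, and 3.97 to 4.28 in TVB-3166 libraries, and 1.86 to 3.41 in the other treated ones, a 1.73-fold difference (permutation p = 5.39e-05). This is the smallest p-value that 6 against 12 libraries can give, and each of the ratios reached it. INSIG1 and SREBF1 levels already separated the 6 FASTIS libraries, so these p-values add no support. Libraries of a drug are not independent tests of the class, and with 2 drugs against 4 as the units the smallest p-value would be 0.0667. The ND-646 and TVB-3166 ranges of the SREBF1 to SREBF2 ratio did not overlap, and an exact test of 3 against 3 libraries cannot go below 0.1.

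**Figure D3:**
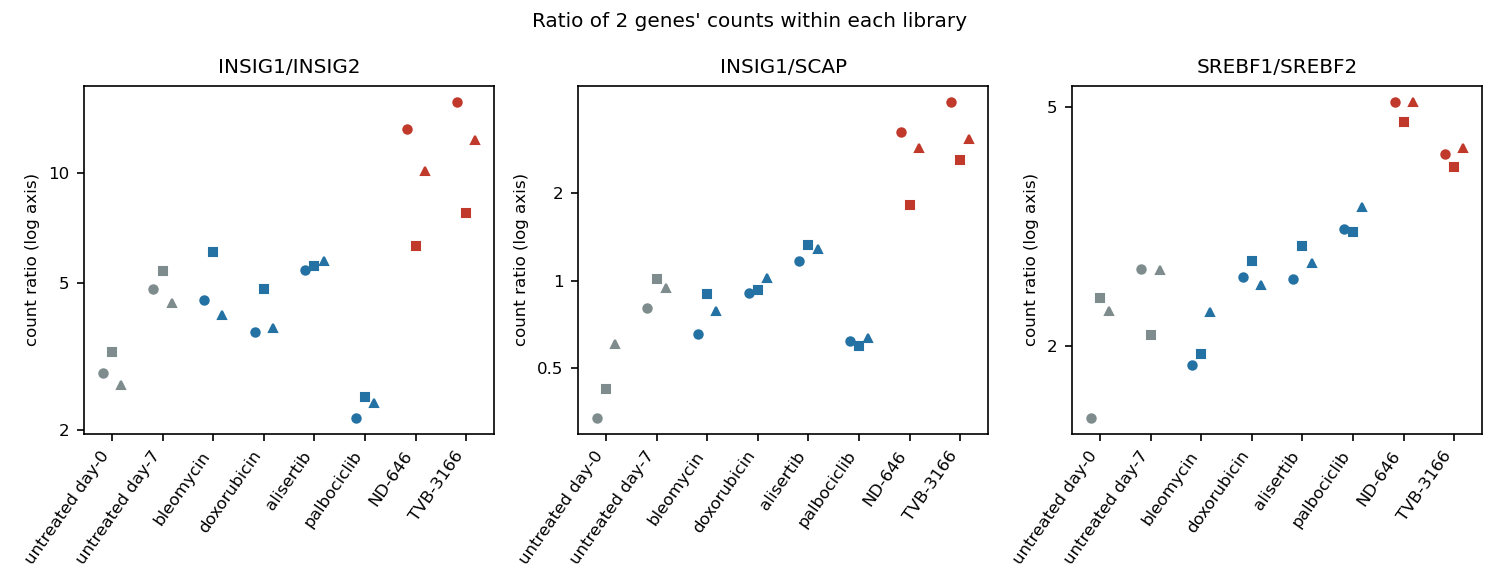
Ratio of the counts of 2 genes in each library on a log axis, by group, with circles, squares, and triangles for replicates 1, 2, and 3 and the colours of the plot of levels. In all 3 panels the 6 FASTIS libraries are above all others, and palbociclib is lowest for INSIG1/INSIG2, at 2.16 to 2.46.

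Levels were also compared between the 2 FASTIS drugs. None of the 6 passed the adjusted threshold between TVB-3166 and ND-646 cells with edgeR or with DESeq2, where 0.717% of 13662 genes did with edgeR, and 1 of 6 had a raw p-value under 0.05. That gene was STARD4, 1.39-fold higher in TVB-3166 cells without overlap (log2 difference 0.48, 95% interval 0.11 to 0.84, edgeR adjusted p = 0.219). Same-numbered libraries of these groups deviated together, and with the number as a block STARD4 differed by 0.49 ± 0.13 (adjusted p = 0.103). The intervals for the other genes were -0.60 to 0.79 for INSIG1, -0.62 to 0.22 for SREBF1, -0.27 to 0.40 for SREBF2, -0.42 to 0.17 for INSIG2, and -0.49 to 0.12 for SCAP, so that differences within these intervals were not excluded. Relative to its group mean, replicate 2 was lowest in both groups for INSIG1, SREBF1, and SREBF2.

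**Figure D4:**
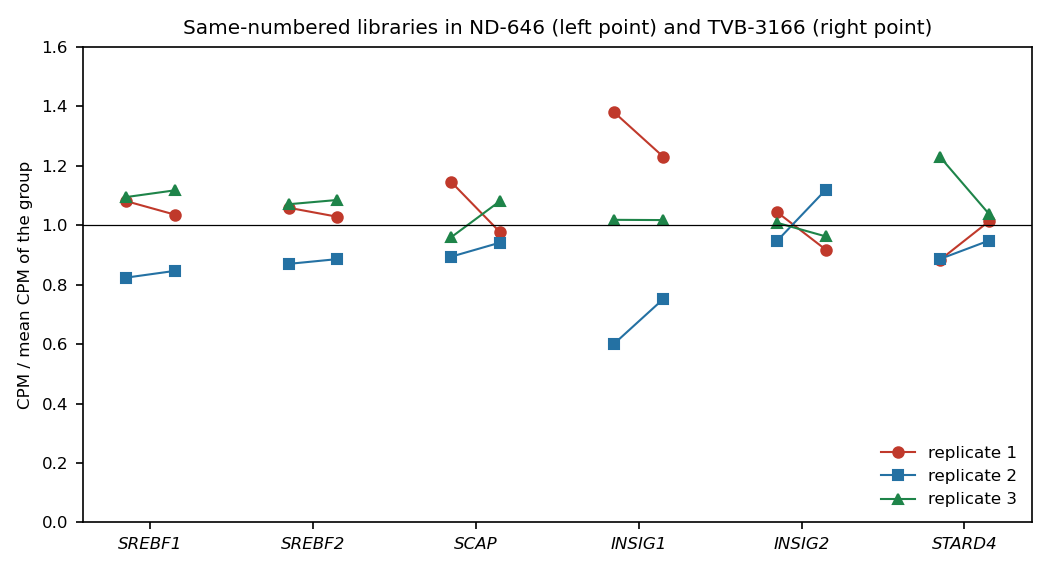
CPM of the 6 genes in each ND-646 library (left point) and the TVB-3166 library of the same number (right point), divided by the mean of the group, with a line for each replicate number. For INSIG1, SREBF1, and SREBF2 replicate 2 lies lowest in both groups, and for INSIG1 the 3 numbers keep 1 order in both.

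Genes that SREBPs are known to control also rose. The lists were chosen with results of these data known. Of 20 enzymes of cholesterol synthesis, 13 rose and 0 fell in ND-646 cells, and 14 rose and 0 fell in TVB-3166 cells, with medians of 1.15 and 1.30 on the log2 scale. Of all genes tested, 19.1% were called as higher in ND-646 cells and 27.4% in TVB-3166 cells. Relative to the other treatments all 20 were higher in FASTIS cells, where 26.1% of all genes were called as higher, with a median of 1.10 against 0.02 over all genes. MSMO1, which removes methyl groups from lanosterol-derived sterols, rose by 2.55 ± 0.27 and 2.75 ± 0.19 in ND-646 and TVB-3166 cells, FDPS, which makes farnesyl diphosphate, by 2.26 and 2.26, MVD by 1.93 and 2.17, and IDI1 by 1.70 and 2.08. The other treatments also raised part of the 20 enzymes relative to day-0, with 12 higher and 1 lower in alisertib cells (median 0.57), 10 higher and 5 lower in doxorubicin cells (0.25), 6 higher and 6 lower in palbociclib cells (-0.08), and 5 higher and 4 lower in bleomycin cells (0.06). Of all genes, 17.7% were called as higher with alisertib, 23.7% with doxorubicin, 26.0% with palbociclib, and 24.1% with bleomycin. The 12 fatty acid genes had 9 higher and 1 lower in ND-646 cells and 11 higher in TVB-3166 cells, with medians of 1.74 and 1.51. Increases in these genes were common in the other treatments too, with 10 higher and 0 lower in alisertib cells (median 0.75), 7 and 0 in doxorubicin (0.60) and in palbociclib cells (0.30), and 5 and 1 in bleomycin cells (0.59). Between FASTIS and the other treatments 11 were higher and 1 lower, with a median of 0.49. The desaturase SCD rose by 2.72 and 2.79, FADS2 by 3.77 and 3.10, MID1IP1, an activator of ACC, by 2.53 and 2.02, and ACSS2, which makes acetyl-CoA from acetate, by 1.91 and 2.37. Relative to day-7 cells, 17.2% of all genes were called as higher with ND-646 and 25.4% with TVB-3166. The shares called as lower were 17.1% and 26.1%. On that reference the cholesterol enzyme medians were 1.01 (ND-646, 14 higher) and 1.26 (TVB-3166, 16 higher), with 0 lower. For fatty acid genes they were 0.75 (7 higher, 1 lower) and 0.70 (9 higher, 1 lower). The same median was 0.36 with alisertib, 0.13 with doxorubicin, 0.10 with palbociclib, and -0.08 with bleomycin. Untreated day-7 cells had a fatty acid median of 0.39 relative to day-0.

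Uptake and release of lipoprotein cholesterol was covered by 10 genes, of which 7 rose and 0 fell in each FASTIS group, where 19.1% (ND-646) and 27.4% (TVB-3166) of all genes rose. Relative to the other treatments 6 of the 10 were higher and 2 lower in FASTIS cells. In that contrast 50.1% of all genes were called in either direction and 26.1% as higher. Relative to day-7 cells 6 were higher and 0 lower with ND-646, and 6 higher and 1 lower with TVB-3166. The shares of all genes on that reference were 17.2% higher and 17.1% lower with ND-646, and 25.4% and 26.1% with TVB-3166. VLDLR, a receptor for lipoproteins, rose by 2.25 (ND-646) and 1.57 (TVB-3166). NPC2 and LIPA, which release cholesterol in lysosomes, rose by 1.89 and 1.37 and by 1.00 and 0.99. MYLIP, an E3 ligase that sends lipoprotein receptors to degradation, rose too, by 1.48 and 1.31. Relative to day-0, 6 of the 10 also rose in bleomycin and in palbociclib cells, 5 in alisertib cells, and 4 in doxorubicin cells, where 1 fell. The shares of all genes called as higher were 24.1%, 26.0%, 17.7%, and 23.7% in that order. Of 15 other intracellular sterol carriers, 2 rose and 2 fell in ND-646 and 7 rose and 2 fell in TVB-3166 cells, with OSBPL2 (0.57 and 0.65) and OSBPL1A (0.53 and 0.65) higher and TMEM97 lower (-1.20 and -0.73). Of all genes, 19.1% rose and 18.8% fell in ND-646 cells, and 27.4% rose and 27.7% fell in TVB-3166 cells. STARD4, which is not counted in this list, rose by 2.25 and 2.74 in the same comparisons.

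Genes for the machinery that acts on the sensor itself moved in both directions or missed the test. Over all genes tested, 19.1% rose and 18.8% fell in ND-646 cells, and 27.4% rose and 27.7% fell in TVB-3166 cells. Of 12 genes for transport and cleavage of SREBPs, 1 rose and 1 fell in ND-646 and 1 rose and 2 fell in TVB-3166 cells. The most abundant, the COPII coat gene SEC24C and the protease gene MBTPS1, differed by -0.44 and -0.02 in ND-646 and by -0.23 and 0.11 in TVB-3166 cells and passed the test in neither. Of 12 genes for INSIG-linked ubiquitination and degradation, 3 rose and 3 fell in ND-646 and 3 rose and 6 fell in TVB-3166 cells. RNF145, an E3 ligase of the endoplasmic reticulum, rose by 1.99 and 1.30 and was 1.31 ± 0.06 higher than in the other treatments on the log2 scale, and ERLIN2, a membrane protein of that degradation route, rose by 0.63 and 0.65, whereas UFD1 (listed as UFD1L) fell by 0.84 and 0.93 and UBE2G2 by 0.80 and 0.41.

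**Figure D5:**
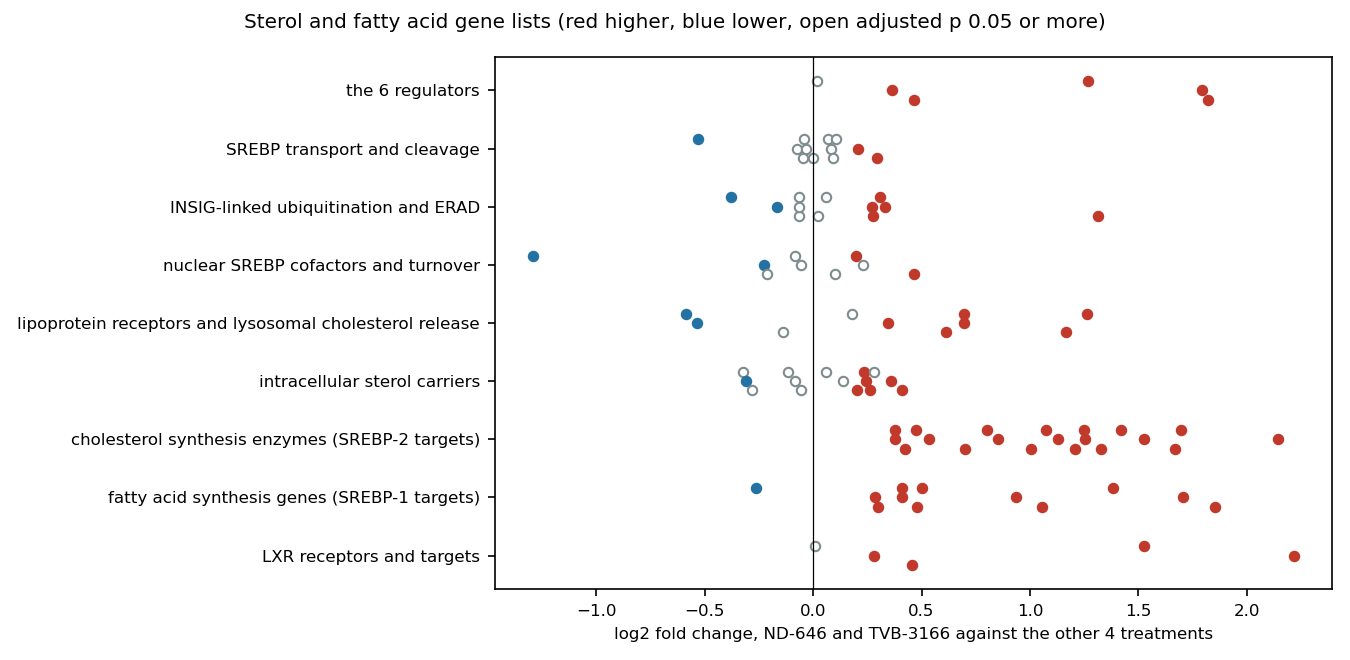
Log2 difference between both FASTIS groups and the 4 other treatments for the 6 regulators and for each gene of the 8 lists, in red where higher, blue where lower, and open where the adjusted p-value is 0.05 or more. All 20 cholesterol synthesis enzymes lie to the right of 0 in red, whereas the SREBP transport list clusters around 0. Of all genes, 26.1% were called as higher in this contrast.

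Across the 24 libraries, the genes most like each member in log2 CPM differed between the paralogs. INSIG1 was closest to the sterol enzymes IDI1 (Pearson's r = 0.978), MSMO1 (0.974), and FDFT1 (0.972), and STARD4 to IDI1 (0.955), INSIG1 (0.945), and GRAMD4 (0.941). SREBF1 was closest to LSS (0.944), LRIG1 (0.939), and AACS (0.936), and SREBF2 to PRR15, INSIG1, and MVD, each at 0.911. INSIG2 was instead closest to SLC35F5 (0.920), ODF2L (0.901), and LEPROT (0.899), none of which is in the lists. SCAP had weaker matches, ATG9A (0.813), LRFN3 (0.764), and CPTP (0.760). These values describe 24 libraries of 8 groups that share treatment and depth, over 9200 genes with a mean of at least 10 CPM.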

How the data were processed

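The 24 RNA-seq libraries of SKBR3 cells took their groups and replicates from the labels. The authors used HISAT2 for alignment (GRCh37) and StringTie for assembly. The values they deposited are whole-number read counts for each gene, without normalization. How reads were counted, and whether strand was used, is not given in the sources used here, and the methods name a total RNA kit whereas the labels name an mRNA kit. The lowest count in the table is 1, so genes without reads in a library are not covered. At 29405121 to 44316330 counts per library, the spread between replicates rather than counting error sets the precision.

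Each pair of groups was fitted on its own by the quasi-likelihood functions of edgeR 4.0.16 (R 4.3.3). Low genes were removed by filterByExpr, libraries were scaled by TMM, tests were 2-sided, and p-values were adjusted over all genes tested by the Benjamini-Hochberg method. SEs are the log2 fold-change divided by the square root of the F statistic. CPM, the counts scaled with TMM over all libraries, were put on the log2 scale with a prior of 2 counts. The study's rule, a fold-change of at least 2 with a raw p-value under 0.05, is given beside. The fit was tested on simulated data. Same-numbered libraries were taken as paired where all 3 correlations of their deviations from group means were over 0.1, as for TVB-3166 with ND-646 (0.318 to 0.452), alisertib with day-0 (0.111 to 0.262), and day-7 with day-0 (0.102 to 0.282). Neither the labels nor the methods say that a number marks a shared day.

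The 6 members, the 8 lists, and the ratios were chosen with earlier results of these data known. Named are the 6 members, the 3 genes most like each, and from each list up to 4 genes with the largest change called in both FASTIS groups, or the 2 most abundant where fewer than 2 were called. Some genes are not reported here. Gene positions on GRCh37 are from GENCODE v44lift37, and promoter and microRNA sequences are from RefSeq on GRCh38.p14. Promoters matched for all 6 genes. Alternatives were DESeq2 1.42.0, RLE size factors, library totals, no filter, a minimum of 10 counts in each library, the study's rule, the replicate block, a fit of all 24 libraries, day-7 cells as reference, and leaving out each library, and for ratios a pseudocount of 1, group means, and leaving out each treatment.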

Additional observations from a re-analysis of the deposited data

How the results depend on the processing

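Single genes kept their direction and side of the threshold in 411 of 468 results under other settings (leaving out libraries apart). Of the rest, 26 lost a call, 7 gained one, and 24 turned direction. The study's rule re-used the main fit, so no direction could turn there. Counts of called genes stayed within 1.5 times in 62 of 78 results, and all 24 ratio results kept their direction. Ratios on group means had no p-value, so only the other ratio results had a side of the threshold, which they kept. At a fold-change of at least 2 with a raw p-value under 0.05 the count was 3 in ND-646, TVB-3166, and the comparison of FASTIS with other TIS cells, 2 in alisertib, 1 in doxorubicin, and 0 in bleomycin, palbociclib, and untreated day-7 cells, since this rule removes small changes by construction. With day-7 cells as the reference the count was 1 in bleomycin, 3 in alisertib, 1 in doxorubicin, and 2 in palbociclib cells. For untreated day-7 cells it was 3 with DESeq2, 3 with the replicate block, 3 with all 24 libraries in a fit, and 0 with no filter, and the cause was not tested. The shares of all genes called by DESeq2, by the fit of all libraries, and with no filter are not given here.

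The turned values were small except with day-7 cells as the reference. There bleomycin gave -0.45 for SREBF1, -0.16 for SREBF2, 0.24 for SCAP, -0.0044 for INSIG1, and -0.040 for STARD4, doxorubicin -0.0049 for SREBF1, -0.10 for SREBF2, 0.16 for SCAP, and -0.20 for STARD4, palbociclib -0.17 for SREBF2, 0.16 for SCAP, -0.41 for INSIG1, and -0.23 for STARD4, and SCAP was 0.17 in alisertib and 0.085 in TVB-3166 cells. With library totals alone SCAP was -0.090 in ND-646, 0.062 in alisertib, 0.023 in doxorubicin, 0.053 in palbociclib, and -0.14 between FASTIS and other TIS cells, and INSIG2 was 0.012 between TVB-3166 and ND-646. That scaling moved the median of all genes by 0.13 in alisertib, 0.12 in doxorubicin and palbociclib, 0.10 in day-7 cells, and -0.13 between FASTIS and other TIS cells. With at least 10 counts in every library SCAP was 0.011 in bleomycin cells and -0.00028 between FASTIS and other TIS cells, and with the replicate block 0.0028 in bleomycin cells. The block changed calls among the 6 genes in day-7 cells alone.

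Leaving out each library in turn gave 4 to 5 called genes for ND-646, 5 for TVB-3166, 2 for bleomycin, 4 to 5 for alisertib, 2 to 4 for doxorubicin, 3 to 4 for palbociclib, 0 to 1 for day-7 cells, 0 between TVB-3166 and ND-646, and 5 between FASTIS and other TIS cells. SCAP ranged from -0.11 to 0.20 in ND-646, -0.28 to 0.024 in TVB-3166, -0.13 to 0.16 in bleomycin, -0.21 to 0.11 in alisertib, -0.22 to 0.076 in doxorubicin, -0.21 to 0.10 in palbociclib, and -0.044 to 0.055 between FASTIS and other TIS cells. In bleomycin cells SREBF1 ranged from -0.051 to 0.20, SREBF2 from -0.0019 to 0.17, and INSIG2 from -0.066 to 0.25, and INSIG2 in day-7 cells from -0.049 to 0.25. Between TVB-3166 and ND-646, SREBF2 ranged from -0.025 to 0.15 and INSIG1 from -0.17 to 0.40. The log2 ratio differences ranged from 1.26 to 1.52 for INSIG1/INSIG2, 0.75 to 0.83 for SREBF1/SREBF2, and 1.62 to 1.86 for INSIG1/SCAP.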

Other observations

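A pair of further lists bears on the SREBPs in the nucleus and on the sterol receptor that acts beside them. Of 9 cofactors and turnover genes of nuclear SREBPs, 1 rose and 2 fell in ND-646 cells and 2 rose and 2 fell in TVB-3166 cells. Among all genes tested, 19.1% rose and 18.8% fell in ND-646 cells, and 27.4% rose and 27.7% fell in TVB-3166 cells. LPIN1, a phosphatidate phosphatase known to restrain SREBPs in the nucleus, rose by 1.22 and 1.504 on the log2 scale (adjusted p = 0.00805 and 4.83e-05). NFYB and NFYC, subunits of the factor that binds the CCAAT box, fell by 0.79 and 0.82 in ND-646 and by 0.91 and 0.55 in TVB-3166 cells. Relative to the other treatments NFYB was lower by 1.29 ± 0.10 (log2 difference -1.29, adjusted p = 3.03e-08), while NFYC differed by 0.10 (adjusted p = 0.207). Of 5 LXR receptors and targets, 2 rose in each FASTIS group, among them the sterol exporter ABCG1, by 2.96 and 2.44. In bleomycin cells all 5 rose relative to day-0, where 24.1% of all genes were called as higher.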
